A study of Drosophila melanogaster with 6 samples.

Results

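Nuclear-encoded genes of oxidative phosphorylation were examined in the brains of third-instar Drosophila melanogaster larvae raised with or without alcohol. They were taken by name from the deposited expression matrix, as every gene symbol that begins with ND- (complex I), SdhA to SdhD (complex II), UQCR- (complex III), COX and a digit (complex IV) or ATPsyn (complex V, ATP synthase). The rule gave 80 of 17137 gene names and 187 of 36294 transcripts, and it used no measured value. Of the 80 genes, 62 are the main subunits (34 in complex I, 4 in II, 6 in III, 7 in IV and 11 in V) and 18 are paralogs, which are second copies named after a main subunit.

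All larvae were of the wild-type Canton S strain and carried no transgene. The 3 control pools came from larvae on cornmeal food with water added, and the 3 alcohol pools from larvae on food made to 5% alcohol that was topped up daily with more alcohol, whereas control food was not topped up. Each pool held about 30 brains dissected from frozen larvae 6 days after egg-laying, so a pool averages over larvae, and the sex of the larvae is not given in the sources used here. The pools are the replicates, no source says whether they came from separate cultures, and p-values measure only the spread between them. In RNA from whole brains, fewer cells of a type and less RNA per cell cannot be told apart.

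Oxidative phosphorylation takes place in the inner mitochondrial membrane. Complexes I and II pass electrons from NADH and succinate to ubiquinone, complex III passes them to cytochrome c, and complex IV passes them to oxygen, while complexes I, III and IV pump the protons that drive ATP synthase. Neurons depend heavily on this pathway for the ATP that ion pumping and synaptic transmission use, and flight and body wall muscle are among the other tissues rich in its transcripts. Most subunits are encoded in the nucleus and a small set in the mitochondrial genome, whose transcripts were not analysed here.

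Expression was measured as FPKM, fragments scaled to the length of the transcript and the depth of the pool, summed over the transcripts of each gene, so that levels can be compared between genes. Because of the scaling to length, such a sum also moves when reads shift between transcripts of different length. The pools held 2719 to 4244 megabases of aligned sequence. Markers of neurons (elav, nSyb, brp, Syt1), glia (repo, nrv2, moody) and neuroblasts (mira, ase, dpn) were detected in every pool, with summed FPKM of 213 to 373, 97.9 to 136 and 50.5 to 69.0. Transcripts of tissues next to the brain were present as well. The 5 fat body markers summed to 1909 to 5756 FPKM in control pools and 562 to 3100 in alcohol pools, and the 8 salivary gland markers to 14058 to 55808 in control pools and 29906 to 45213 in alcohol pools. Of the 8 salivary gland markers, 7 had an unadjusted p-value under 0.05 and a positive log2 fold change when fitted with a library-size covariate (limma). By that fit 6 were also over 2-fold. Without the covariate, ng1, ng2 and ng3 had differences of mean log2(FPKM + 1) of 2.97 to 4.15. Those of Sgs3, Sgs5 and Sgs8 were 0.43, 0.31 and 0.18, and their groups overlapped. The highest fold change was that of ng1, with 3.13 ± 2.14 FPKM in control and 66.6 ± 22.4 in alcohol pools (SD, n = 3 each). The part of salivary gland RNA in the subunit values was not tested. Among all 8247 genes tested, 201 had an unadjusted p-value under 0.05 and 0 had an adjusted p-value under 0.05 (limma).

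The main subunits were abundant, with a single exception. Averaged over the 6 pools, 61 of the 62 had between 18.8 and 667 FPKM, with a median of 86.1, against a median of 20.9 for all genes tested. The exception was ND-B8, an accessory subunit of complex I (1 transcript, chr2L:4454626-4455207, dm6). ND-B8 was listed at 0 in control pool 1 and in all alcohol pools, and at 0.652 and 0.215 FPKM in control pools 2 and 3. It was singled out after its values were seen, and it did not pass the filter on variance, so the tests below cover 61 main subunits. Of the paralogs, 7 passed the filter and 11 did not, which makes 68 tested genes in all.

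By the mean over pools of the FPKM summed over main subunits, complex V was highest, followed by complex I, IV, III and II, although complexes V and I overlapped and complex I was the higher in alcohol pool 3. The sum over all 62 subunits was 7767, 7014 and 7426 FPKM in control pools 1 to 3 and 8104, 7125 and 8489 in alcohol pools 1 to 3. The alcohol mean was 6.81% above the control mean (7906 ± 703 against 7402 ± 377, SD, n = 3 pools each), and the groups overlapped. As a share of the total FPKM of each pool, the 62 subunits made up 1.33%, 1.26% and 1.48% in control pools and 1.43%, 1.40% and 1.42% in alcohol pools. On that scale control pool 3 was the highest, and the groups again overlapped.

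Each complex gave the same picture of slightly higher alcohol means and overlapping groups. Complex I summed to 2466 ± 170 FPKM in control and 2702 ± 272 in alcohol pools. Complex II summed to 205 ± 13.9 and 221 ± 22.3. For complex III the values were 860 ± 7.41 and 895 ± 77.4, and in this complex only alcohol pool 3, at 984 FPKM, stood above the other pools, which held 844 to 869. Complex IV summed to 1184 ± 61.6 and 1280 ± 155, and complex V to 2688 ± 138 and 2809 ± 221. These sums were not tested.

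**Figure D1:**
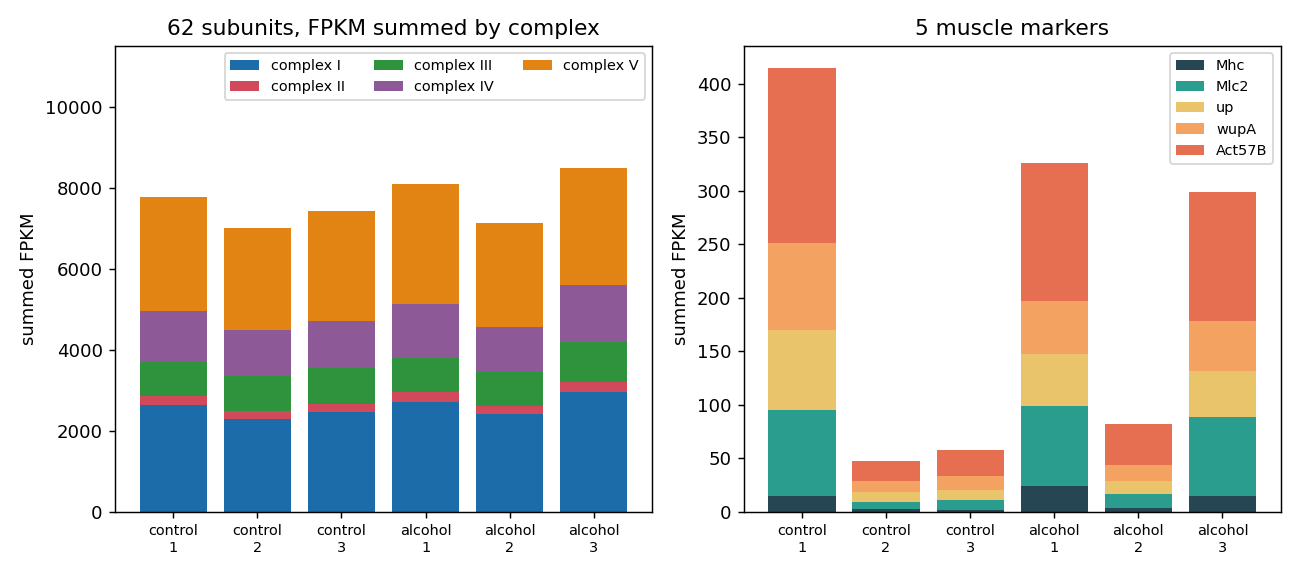
Left, FPKM summed over the 62 main subunits in each pool, stacked by complex; right, FPKM of 5 muscle markers in each pool, stacked by gene. The subunit bars run from 7014 (control pool 2) to 8489 (alcohol pool 3), and the muscle bars from 47.9 (control pool 2) to 415 (control pool 1).

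None of the tested nuclear genes of oxidative phosphorylation differed between alcohol and control brains at an unadjusted p-value under 0.05 (limma). Of the 68 tested genes, 0 were higher and 0 were lower at this threshold, against 2.1% of all genes tested that were higher and 0.34% that were lower. By the call rule of the study, an unadjusted p-value under 0.05 with over a 2-fold change, 0 of 68 were called, against 1.22% of all genes. With shares this low among all genes, 0 of 68 is no result about the pathway. The smallest unadjusted p-value among them was 0.0621 and the smallest adjusted p-value 0.997 (limma). In 0 of the 68 genes did every alcohol pool lie above every control pool, and in 0 did every alcohol pool lie below, against 1.77% and 4.44% of all genes. When the library-size covariate was left out of the model, the smallest p-value among them was 0.117.

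The fitted differences were small, and most were positive. Of the 61 main subunits, 51 had a positive and 10 a negative log2 fold change, with a median of 0.19, compared with 49.9% positive and a median of 0.00 for all genes tested. In the plain difference of group means of log2(FPKM + 1), without the covariate, 57 of 61 were higher in alcohol pools with a median of 0.11, compared with 40.6% of all genes and a median of −0.04. After each pool was scaled to the same total, 54 of 61 were positive with a median of 0.10, against 0.07 for all genes. Subunits share pools and are not independent replicates, so these counts are a description and carry no test. The standard error of a subunit's log2 fold change was 0.15 to 0.69, with a median of 0.19, and for 29 of the 61 the fold change was smaller than its standard error. The 95% interval held 0 for all 61 subunits and lay within a 2-fold change in either direction for 55. The other 6 were ND-B12, ND-B14.5A, ND-B15, ND-MNLL, ND-MWFE and ATPsyndelta, for which a 2-fold difference lay inside the interval.

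**Figure D2:**
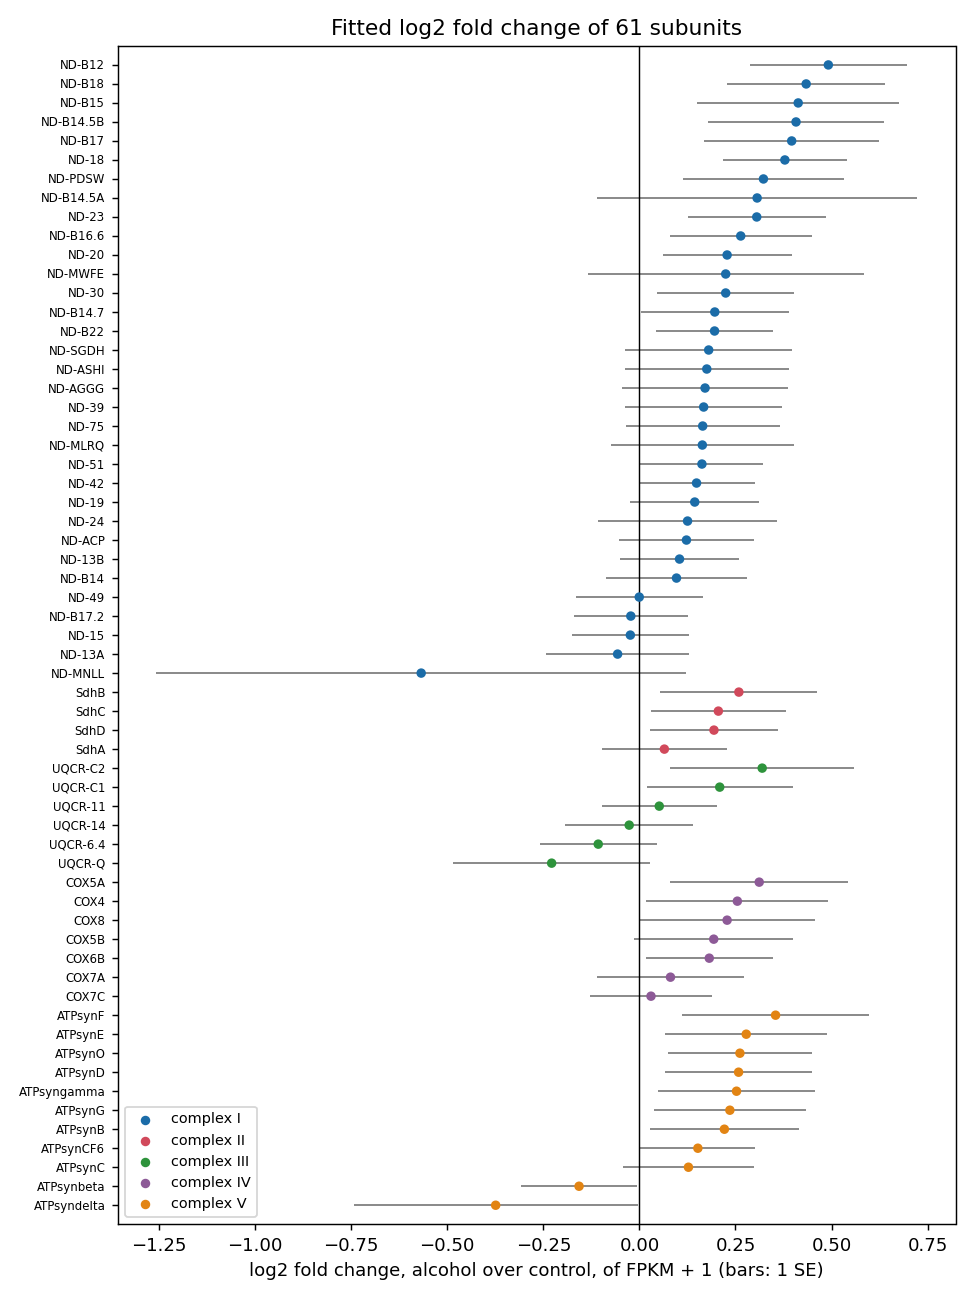
Fitted log2 fold change (alcohol over control, of FPKM + 1) of the 61 tested main subunits, ordered within each complex; points are colored by complex and bars are 1 standard error. Most points lie right of 0, from −0.57 (ND-MNLL) to 0.49 (ND-B12), and none of the 61 has an unadjusted p-value under 0.05.

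Complex I takes electrons from NADH through a chain of iron-sulfur clusters held by its core subunits, around which the accessory subunits assemble. The 7 nuclear-encoded core subunits (ND-75, ND-51, ND-49, ND-30, ND-24, ND-23 and ND-20) had 25.3 to 99.0 FPKM on average. Their log2 fold changes had a median of 0.16, 6 of 7 were positive, and the smallest p-value was 0.149. ND-75, the large iron-sulfur subunit, was lowest at 25.1, 24.4 and 24.1 FPKM in control pools and 31.0, 22.0 and 25.5 in alcohol pools. ND-49, which lies next to the ubiquinone-binding site, was highest at 97.5, 90.4 and 107 in control and 98.6, 106 and 94.5 in alcohol pools. Alcohol pool 2 was the lowest of the 6 pools for ND-75, whereas for ND-49 it was among the highest, and both genes overlapped between groups.

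Leaving out ND-B8, the accessory subunits of complex I spanned a wider range of mean levels, from 18.8 FPKM for ND-B14.5A to 378 for ND-MLRQ, a 20.1-fold difference in level. ND-MLRQ had 414, 315 and 356 FPKM in control pools and 342, 380 and 462 in alcohol pools, and ND-AGGG, the next in order, had 282, 207 and 250 and then 236, 282 and 273. The lowest value of ND-MLRQ lay above the highest of ND-AGGG. ND-15 and ND-ACP, the mitochondrial acyl carrier protein, followed at 150 and 138 FPKM on average, and their values overlapped. The log2 fold change of ND-MLRQ was 0.16 ± 0.24 (SE, unadjusted p = 0.524), less than the spread between pools. Over the 26 tested accessory subunits the median log2 fold change was 0.18, with 22 positive and 4 negative.

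ND-B12, an accessory subunit in the membrane arm, had the smallest p-value of all members. Its level was 77.9, 69.7 and 57.7 FPKM in control pools and 92.4, 70.8 and 91.1 in alcohol pools. Alcohol pools 1 and 3 lay above every control pool, and alcohol pool 2 lay between control pools 1 and 2. The log2 fold change was 0.49 ± 0.20 (SE, 95% interval −0.04 to 1.02, unadjusted p = 0.0621, adjusted p = 0.997). ND-18 had 26.7, 22.6 and 22.9 FPKM in control and 31.8, 25.5 and 28.4 in alcohol pools (0.38 ± 0.16, unadjusted p = 0.0667). ND-B18 had 31.5, 25.1 and 22.0 and then 34.2, 24.1 and 30.9, with 0.43 ± 0.21 (unadjusted p = 0.0886). In both, control pool 1 was the highest control and alcohol pool 2 the lowest alcohol pool, the same order as in ND-B12. The plain differences without the covariate were smaller, at 0.30 for ND-B12, 0.24 for ND-18 and 0.18 for ND-B18. With alcohol pool 2 left out, ND-B12, ND-B14.5B, ND-B15 and ND-B18 had an unadjusted p-value under 0.05 (4 of 68 tested members), all higher in alcohol pools, against 3.31% of all genes that were higher in that fit.

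Complex II, succinate dehydrogenase, also belongs to the citric acid cycle. Its catalytic subunits are the flavoprotein SdhA, with 45.6 FPKM on average, and the iron-sulfur protein SdhB, with 26.9, and its membrane anchors are SdhC and SdhD. SdhC was the most abundant at 102, 84.4 and 86.8 FPKM in control pools and 101, 86.1 and 104 in alcohol pools. SdhB had 26.1, 23.9 and 24.6 in control pools and 31.7, 23.7 and 31.3 in alcohol pools. In SdhB, alcohol pools 1 and 3 stood above all controls, and alcohol pool 2 was the lowest of the 6 (log2 fold change 0.26 ± 0.20, unadjusted p = 0.261). All 4 fold changes were positive, between 0.06 and 0.26, and none passed the test.

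The fold changes of complex III had a median of 0.01 with the covariate. Without it the median was 0.09, and 5 of 6 subunits were higher in alcohol pools. The 2 core proteins, UQCR-C1 and UQCR-C2, had positive log2 fold changes of 0.21 and 0.32, while 3 of the 4 small subunits had negative ones. UQCR-C2 had 26.3, 23.1 and 23.8 FPKM in control and 34.4, 21.9 and 28.5 in alcohol pools (0.32 ± 0.24, unadjusted p = 0.241). UQCR-11, the most abundant, had 366, 361 and 359 FPKM in control pools and 363, 370 and 412 in alcohol pools. Its log2 fold change, 0.05 ± 0.15, was smaller than its error. The 3 negative values were −0.03 for UQCR-14, −0.11 for UQCR-6.4 and −0.23 for UQCR-Q. For UQCR-14 and UQCR-6.4 the plain difference of means had the other sign (0.01 and 0.10). The mean levels of the small subunits lay at 85.9 to 372 FPKM, above those of UQCR-C1 at 70.1 and UQCR-C2 at 26.3, but in alcohol pool 1 UQCR-Q, at 63.1, was below UQCR-C1, at 84.4.

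Complex IV, cytochrome c oxidase, builds its nuclear subunits around a core encoded in the mitochondrial genome. Its 7 subunits had the narrowest range of levels, 3.16-fold from COX8 at 93.4 FPKM to COX7C at 295. COX7C had 282, 277 and 301 FPKM in control and 302, 279 and 330 in alcohol pools (log2 fold change 0.03 ± 0.16, unadjusted p = 0.857). COX5A had 149, 132 and 127 FPKM in control and 174, 124 and 175 in alcohol pools (0.31 ± 0.23, unadjusted p = 0.235). Alcohol pool 2 was the lowest of the 6 pools for COX5A, and alcohol pools 1 and 3 were the highest. All 7 fold changes were positive, with a median of 0.19, and none passed the test.

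ATP synthase held the most abundant members. ATPsynC, which forms the rotating ring in the membrane, had 706, 571 and 685 FPKM in control pools and 701, 674 and 663 in alcohol pools, and ATPsynbeta, the catalytic subunit, had 573, 585 and 702 and then 585, 608 and 621. Their values overlapped, so their order is not set beyond the spread between pools. The third, ATPsynG, reached at most 341 FPKM and lay below both in every pool. The log2 fold change was 0.13 ± 0.17 for ATPsynC and −0.16 ± 0.15 for ATPsynbeta (unadjusted p = 0.488 and 0.346). Bellwether (blw), the alpha subunit that alternates with beta in the catalytic head, had 244, 230 and 241 FPKM in control pools and 275, 221 and 235 in alcohol pools. The ratio of ATPsynbeta to blw was 2.35, 2.54 and 2.92 in control pools and 2.13, 2.76 and 2.64 in alcohol pools, so the transcript of beta was the higher in each pool.

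The 8 subunits of the stalk and membrane part of ATP synthase (ATPsynB, C, CF6, D, E, F, G and O) all had positive log2 fold changes, with a median of 0.25. ATPsynF had the smallest p-value of the complex, with 118, 88.0 and 93.0 FPKM in control and 121, 91.4 and 130 in alcohol pools (0.35 ± 0.24, unadjusted p = 0.205). Of the 3 members in the F1 head and central stalk, ATPsyngamma was positive at 0.25, and ATPsynbeta and ATPsyndelta were negative at −0.16 and −0.37. The F1 subunits blw (alpha) and sun (epsilon), which the name rule left out, were positive at 0.09 and 0.14. ATPsyndelta had 108, 104 and 92.1 FPKM in control pools and 80.9, 51.5 and 103 in alcohol pools. Alcohol pool 3 lay within the controls and the other alcohol pools below them (−0.37 ± 0.37, unadjusted p = 0.358). After each pool was scaled to the same total, its log2 fold change was −0.76 with an unadjusted p-value of 0.00832. A shift of reads from its 666-base to its 3817-base transcript, described below, lowers the summed FPKM without a loss of reads. What part this had in the lower sums was not tested.

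The subunits varied together from pool to pool. The median log2 ratio of a subunit's level to its own mean was 0.02, −0.11 and −0.10 in control pools 1 to 3 and 0.13, −0.15 and 0.15 in alcohol pools 1 to 3. Control pool 1 was the highest control in 48 of the 61 subunits, against 41.8% of all genes tested, and alcohol pool 2 was the lowest alcohol pool in 52, against 35.6% of all genes. Both held in 42 subunits, against 23.2% of all genes. The highest of the 6 pools was alcohol pool 3 in 29 subunits and alcohol pool 1 in 24, and the lowest was alcohol pool 2 in 27, control pool 2 in 18 and control pool 3 in 12. In complexes I, II, IV and V the medians followed this order, with alcohol pools 1 and 3 high and alcohol pool 2 lowest or next to lowest. In complex III the median was high only in alcohol pool 3, at 0.16, and between −0.07 and 0.00 in the other pools.

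**Figure D3:**
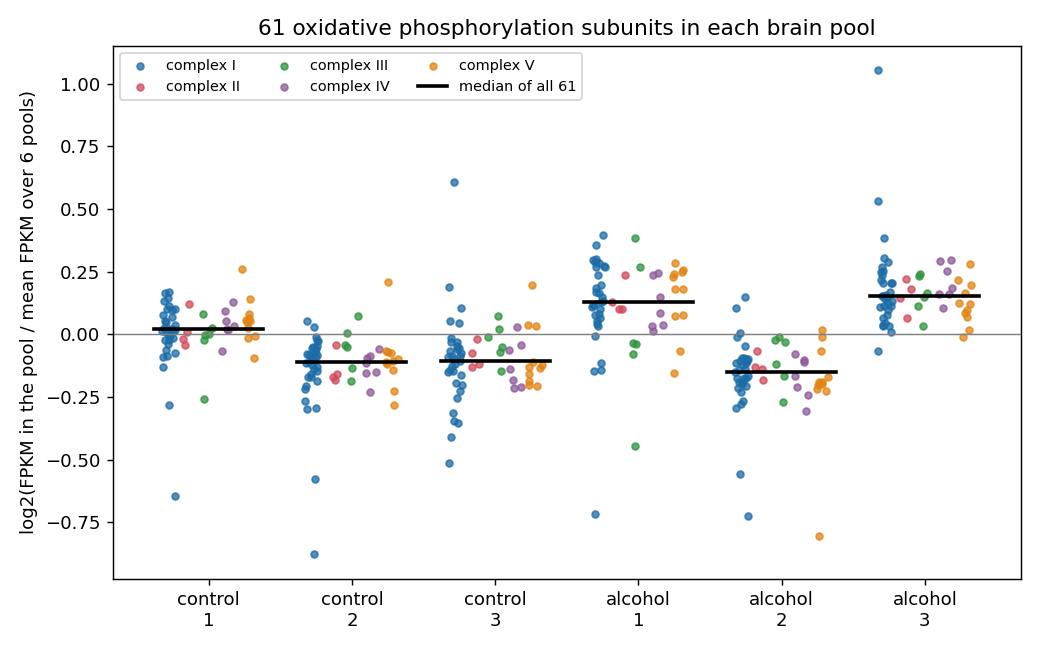
Level of the 61 tested main subunits in each pool as log2 of FPKM over the gene's own mean of 6 pools; each point is a gene, colored by complex, and black lines are medians over the 61. The medians are 0.02, −0.11 and −0.10 in control pools and 0.13, −0.15 and 0.15 in alcohol pools, so alcohol pool 2 sits with control pools 2 and 3.

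Muscle markers were high in control pool 1 and alcohol pools 1 and 3. The 5 markers (Mhc, Mlc2, up, wupA and Act57B, which encode parts of the contractile apparatus) summed to 415, 47.9 and 57.6 FPKM in control pools and 326, 82.1 and 299 in alcohol pools. Act57B, the most abundant of them, had 163, 19.0 and 24.5 FPKM in control and 129, 38.7 and 120 in alcohol pools. Each of the 5 was highest in control pool 1 and alcohol pools 1 and 3. Control pool 1 had the highest muscle sum, while its median log2 ratio of subunits was 0.02, against 0.13 and 0.15 in alcohol pools 1 and 3. Neuron markers summed to 213, 234 and 343 FPKM in control pools and 269, 373 and 228 in alcohol pools. They were highest in alcohol pool 2 and control pool 3. Of the 5, 2 (Mhc and Act57B) were called higher in alcohol pools in the fit with the library-size covariate, with unadjusted p-values of 0.0345 and 0.0393 (limma). Their fitted log2 fold changes were 2.48 and 2.35, against plain differences of 1.15 and 0.97 without the covariate, and their groups overlapped. With the log2 of the summed muscle markers as the covariate in place of library size, a fit chosen after seeing the data, 49 of 61 subunits had a positive log2 fold change, and their median was 0.04, against a median of −0.04 for all genes tested. The pools high in muscle markers also held the fewest aligned bases. Control pool 1 held 3257 megabases, and alcohol pools 1 and 3 held 2719 and 3557. Control pools 2 and 3 held 4244 and 3937, and alcohol pool 2 held 4028. What part muscle RNA has in the subunit levels was not tested further, and the part of depth was not tested.

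Most paralogs exceeded 1 FPKM in control pool 1 alone. All 18 had their highest level in control pool 1, at 0.741 to 9.76 FPKM, whereas control pool 1 was the highest for 32.7% of all genes with any signal. In control pool 1, 16 of the 18 exceeded 1 FPKM, and among the other 5 pools only alcohol pool 3 had any above 1 FPKM, namely ATPsynepsilonL at 1.24 and UQCR-11L at 1.43. The 18 summed to 46.8 FPKM in control pool 1, 3.02 and 2.07 in control pools 2 and 3, and 2.15, 2.27 and 4.01 in alcohol pools. COX6AL, ND-20L, ND-24L and UQCR-14L were listed at 0 in all 5 other pools.

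COX4L had the highest level among the paralogs (chr2R:5353994-5354723, dm6). It had 9.76, 0.275 and 0.683 FPKM in control pools and 0.662, 0.596 and 0.683 in alcohol pools. COX4, the main subunit it is named after (chr2L:19958713-19960065), had 123, 106 and 101 FPKM in control and 136, 93.1 and 131 in alcohol pools, so the paralog stood apart in control pool 1 while COX4 did not. In control pool 1 the paralogs reached 0.470% to 12.5% of the level of their main subunits, with a median of 1.69%, and SdhBL had the highest share, at 3.28 FPKM against 26.1 for SdhB. Reads that fit both copies could be split between them by the assembler, so these low levels are uncertain.

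Several such paralogs are known in Drosophila for expression in the testis, and testis markers were high in the same library. Mst84Da, a gene of the male germ line, had 10.2 FPKM in control pool 1, 0.164 in alcohol pool 3 and was listed at 0 in the other pools. The meiotic arrest gene aly had 0.794 FPKM in control pool 1 and was listed at 0 elsewhere. The gene topi, which acts with it, had 1.12 FPKM in control pool 1 and 0.116 to 0.336 in the others, while can, at 1.24, was near its range of 0.683 to 0.979. Cyt-c-d, the cytochrome c of the male germ line, had 7.04 FPKM in control pool 1 and at most 0.258 elsewhere, whereas the somatic Cyt-c-p had 105 ± 4.13 in control and 110 ± 11.5 in alcohol pools (SD, n = 3 each). The part of testis RNA in the paralog values was not tested. For the 7 paralogs that passed the filter the fitted fold change turned on the covariate, which was highest in control pool 1. All 7 were positive with it and all 7 were lower in alcohol pools without it, and for COX4L the log2 differences were 0.53 and −0.79. Without control pool 1, 0 of the 18 paralogs passed the filter.

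**Figure D4:**
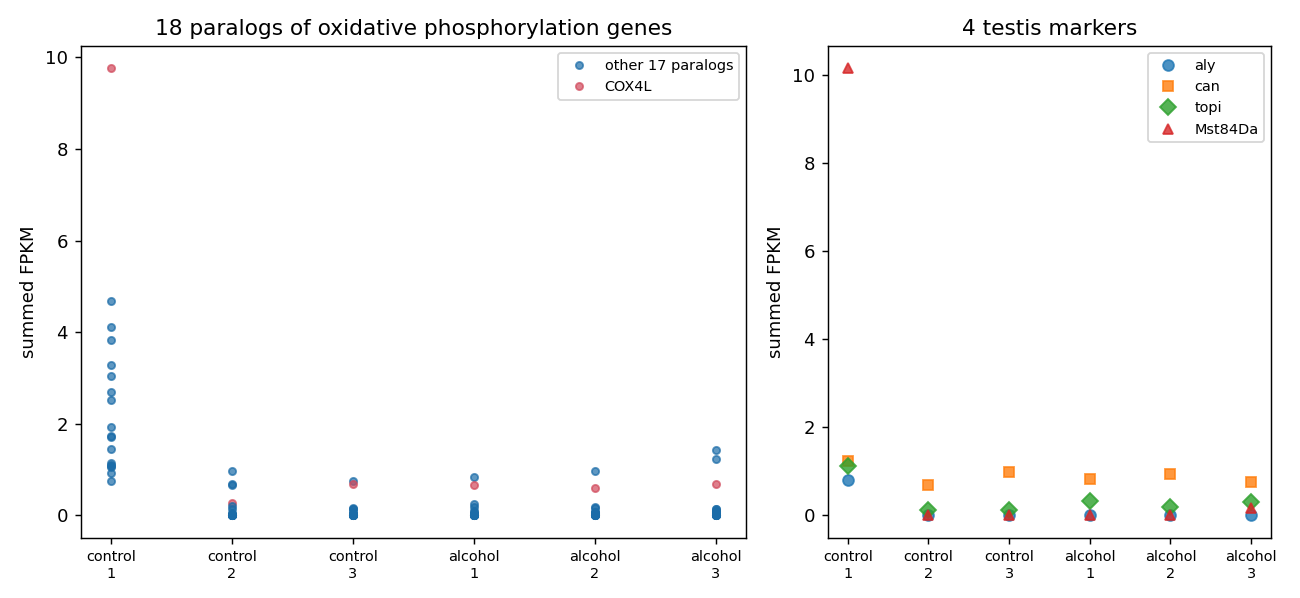
Summed FPKM of the 18 paralogs (left, COX4L in red) and of 4 testis markers (right) in each pool; each point is a gene. In control pool 1 the paralogs lie at 0.741 to 9.76 FPKM, and in the other pools none exceeds 1.43.

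At the level of single transcripts, 140 of the 187 passed the filter and 3 were called by the rule of the study (unadjusted p-value under 0.05 and over 2-fold), against 3.85% of all transcripts tested. Their smallest adjusted p-value was 0.691. Of the 140, 5 had every alcohol pool above every control pool and 1 had every alcohol pool below, against 2.82% and 4.9% of all transcripts. Chosen after their values were seen, the 5 were single transcripts of ATPsyndelta, ATPsynC, ND-15, ND-42 and ND-B16.6, and the other was of UQCR-C2. Transcripts varied more between pools than the genes they belong to. In the 50 subunits with 2 or more transcripts, the coefficient of variation over the 6 pools had a median of 26.5% for 123 tested transcripts and of 11.9% for the sums.

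ATPsyndelta had the called transcript in which the groups did not overlap. The gene (chrX:10212970-10217393, dm6) has 3 transcripts with 4 exons each and a shared start, which differ in length (666, 978 and 3817 bases). The longest, NM_001298145, had 2.1, 1.86 and 3.77 FPKM in control and 14.5, 12.3 and 7.02 in alcohol pools. The fitted log2 fold change was 1.73 ± 0.48 (unadjusted p = 0.0174, adjusted p = 0.868). The shortest, NM_132382, had 83.2, 74.4 and 65.9 FPKM in control pools and 35.1, 20.6 and 86.1 in alcohol pools. Alcohol pools 1 and 2 were low for the short transcript and high for the long one, and alcohol pool 3 was at the control level for the short one. The long transcript runs across the span of CG2962 (chrX:10214858-10216642), a gene on the other strand that was listed at 0 FPKM in 5 pools and at 0.0033 in control pool 2. An exact two-sided permutation test of 3 against 3 pools cannot give a p-value below 0.1, which is the value for groups that do not overlap.

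**Figure D5:**
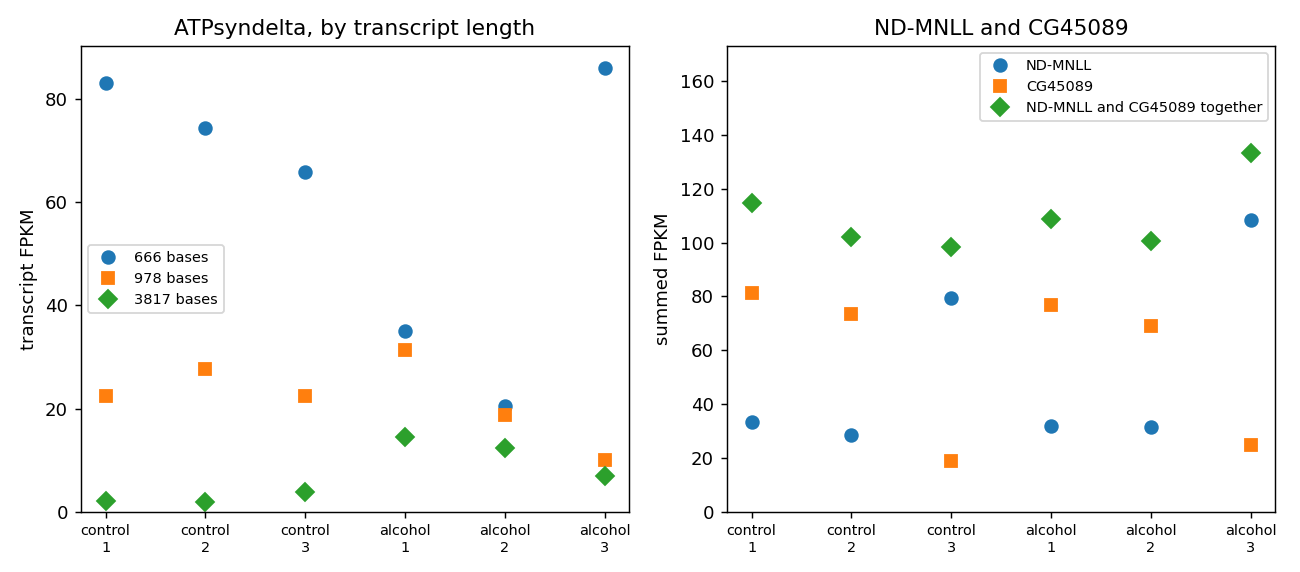
Left, FPKM of the 3 ATPsyndelta transcripts in each pool, named by their length; right, summed FPKM of ND-MNLL, of CG45089 and of both together. The longest ATPsyndelta transcript lies at 1.86 to 3.77 in control and 7.02 to 14.5 in alcohol pools, and ND-MNLL and CG45089 change places in control pool 3 and alcohol pool 3 while together they stay between 98.4 and 133.

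The other called transcripts came from ND-15 and ND-13A, accessory subunits of complex I. For ND-15, the transcript NM_001258886, whose first exon lies far upstream (chr2L:114726-156030), had 0.0232, 1.70 and 3.69 FPKM in control and 0, 1.56 and 1.45 in alcohol pools (−1.58 ± 0.33, unadjusted p = 0.00569). For ND-13A, the transcript NM_001298685 (chr2L:5099500-5100288) had 13.2, 1.22 and 1.06 FPKM in control and 13.0, 1.91 and 1.37 in alcohol pools (2.04 ± 0.59, unadjusted p = 0.0197). The number 1 pools were lowest for the first and highest for the second in both groups, and the groups overlapped. The plain differences of mean log2(FPKM + 1) were −0.35 and 0.19, and neither transcript was called without the covariate. The summed level of ND-15 was 141 to 155 FPKM in control and 140 to 162 in alcohol pools, and that of ND-13A was 59.8 to 60.1 and 54.7 to 71.1, with log2 fold changes of −0.02 and −0.06.

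In a few subunits a single pool used another transcript than the rest, as was seen after their values were examined. UQCR-Q (chr3L:17474761-17476124) had its transcript NM_001275058 at 68.7, 84.4 and 78.6 FPKM in control pools and at 8.74, 78.1 and 94.5 in alcohol pools. Its transcript NM_001202195 had 15.4, 6.04 and 6.83 and then 54.2, 6.61 and 6.60. Alcohol pool 1 was thus low in the first and high in the second, and the sum was lowest there, at 63.1 against 84.7 to 101 elsewhere. The second transcript is the longer (746 against 425 bases), so the switch by itself lowers the summed FPKM. Whether reads of UQCR-Q were fewer in alcohol pool 1 was not tested. In ND-15, control pool 3 was low for NM_164372, at 24.8 against 64.5 to 79.3 FPKM in the other pools, and highest for NM_164371, at 65.9 against 32.9 to 46 FPKM. In UQCR-6.4, control pool 1 was high for NM_001274128 (561 bases), at 76.1 against 9.84 to 14.7 FPKM. It was low for NM_137389 (324 bases), at 35.1 against 116 to 142 FPKM. Here too the switch was to the longer transcript, and the sum was lowest in control pool 1, at 111 FPKM.

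The level of ND-MNLL, the most variable of the 61 subunits, was uncertain. It had 33.3, 28.4 and 79.5 FPKM in control and 31.7, 31.5 and 108 in alcohol pools, high in both number 3 pools. Its fitted log2 fold change was −0.57 ± 0.69 (SE, limma, unadjusted p = 0.448), whereas the plain difference without the covariate was 0.17. The gene shares its span (chrX:7893053-7893798) and strand with CG45089, and all 3 transcripts of CG45089 have the start, end and length of an ND-MNLL transcript. CG45089 had 81.3, 73.6 and 18.9 FPKM in control and 76.9, 69.1 and 24.9 in alcohol pools, low where ND-MNLL was high. Together they had 115, 102 and 98.4 FPKM in control and 109, 101 and 133 in alcohol pools (105 ± 8.53 and 114 ± 16.9, SD, n = 3 each). The coefficient of variation of ND-MNLL alone was 64.5%, against a median of 11.8% over the 61 subunits and 14.6% over all genes tested.

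Subunits and electron carriers that carry other names gave no call. Of the 9 listed (blw, sun, cype, levy, RFeSP, Cyt-c1, ox, Cyt-c-p and Cyt-c-d), 8 had a positive log2 fold change and 0 passed the test in either direction. Of the 8, Cyt-c-d passed the filter through control pool 1, and its plain difference was negative. RFeSP, the Rieske iron-sulfur protein of complex III, had 32.6, 29.6 and 28.4 FPKM in control and 48.3, 26.3 and 36.8 in alcohol pools (0.43 ± 0.30, unadjusted p = 0.205). Levy and cype, subunits of complex IV, had log2 fold changes of 0.41 ± 0.26 and 0.34 ± 0.28 with 92.2, 86.7 and 76.6 FPKM in control and 121, 78.1 and 112 in alcohol pools for levy. In all 3 genes alcohol pool 1 was the highest and alcohol pool 2 the lowest alcohol pool. The epsilon subunit sun had 176 to 225 FPKM, the cytochrome Cyt-c1 52.0 to 64.1 and ox 108 to 139, with log2 fold changes of 0.14, 0.05 and −0.02.

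Genes around the pathway gave no call either. Of 7 tested assembly factors, 6 had a positive and 1 a negative log2 fold change (median 0.14), and 0 passed the test. Among 14 enzymes of pyruvate oxidation and the citric acid cycle, 12 were positive and 2 negative, with a median of 0.10, and 0 passed. The ADP/ATP carrier sesB had 496 to 584 FPKM and the channel porin 499 to 595, at the level of the most abundant ATP synthase subunits, and of 5 tested carriers and channels 0 passed the test. Of 5 tested regulators of mitochondrial genes, among them the coactivator srl and the mitochondrial transcription factor TFAM, 2 were positive and 3 negative and 0 passed.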

How the data were processed

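The authors trimmed reads of stranded poly-A libraries with Trimmomatic 0.39, aligned them to dm6 with HISAT2 2.2.0 and quantified transcripts with StringTie 2.1.4. They deposited FPKM and read coverage per transcript and pool, without further normalization. Coverage was used only for aligned bases. Their deposited table of fold changes, p-values and q-values was not used.

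Genes with a variance of summed FPKM above 1 were fitted as log2(FPKM + 1) on treatment with Ballgown's library-size covariate. The fit used limma 3.58.1 in R 4.3.3 and Benjamini-Hochberg adjustment over all genes, and transcripts were fitted likewise. Fold changes on the log2(FPKM + 1) scale understate low genes. The covariate was 30450, 29432 and 29005 in control pools and 29222, 28800 and 28531 in alcohol pools. The fit was tested on simulated data. Python 3.11.15 made the summaries.

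Genes were named by rule: per complex the most abundant and the smallest p, genes with a called transcript, the most abundant paralog pair and the list of other names. Others were chosen after their values were seen. Members and lists were chosen with earlier results of these data known. Older symbols were matched through RefSeq synonyms. No read counts were used, so values carry no counting error.

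Alternatives were the covariate left out, computed from summed genes or replaced by muscle markers, a replicate block, a pseudocount of 0.1, other filters, a common total of 1000000, quantile normalization, the ordinary F-test and leaving out each pool.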

Additional observations from a re-analysis of the deposited data

How the results depend on the processing

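Across 17 alternatives the median log2 difference over the tested members, paralogs included, was 0.0293 (muscle markers as covariate) to 0.283 (without alcohol pool 2), against 0.201 in the model with the covariate; leaving out a pool gave 0.143 to 0.283. The median of all genes moved too. After scaling to a common total the main subunits had 0.0952 and all genes 0.0746, against 0.193 and −0.0005 in the model with the covariate, and with muscle markers they had 0.0415 and −0.0417. Members higher at an unadjusted p under 0.05, 0 as reported, numbered 1 with the covariate from summed genes (ND-B12), 1 with the ordinary F-test (ND-18), 2 without the variance filter (ND-18 and ND-B12) and 0 to 4 with a pool left out. The 4 came without alcohol pool 2 (ND-B12, ND-B14.5B, ND-B15 and ND-B18). Of all genes 2.30%, 1.89%, 2.39% and 3.31% were higher in these 4 fits. Members lower numbered 1 after scaling to a common total (ATPsyndelta), where 2.61% of all genes were lower, and 6 with muscle markers as covariate, all of them paralogs and over 2-fold, where 8.08% of all genes were lower. Adjusted p-values of members were 0.481 or higher under every alternative.

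The same replicate numbers occur in both groups. No source says that same-numbered pools were handled together, so the numbers were not taken as pairs. Deviations of same-numbered pools from their group means correlated at −0.12, −0.47 and −0.57, and those of other pairs at −0.18 to 0.64. These correlations cannot show whether pools shared their handling. A replicate block with the covariate gave 3 members higher and called (ATPsynGL, ATPsynepsilonL and COX4L), 6 called member transcripts and 384 genes at p under 0.05, against 201 without it. These members are all paralogs with their highest level in control pool 1, and all were lower in alcohol pools without the covariate. Their sign thus turned on the covariate. About the same share of all genes as of members was higher in the fit with block and covariate. The share of all transcripts called in that fit is not given here, so its counts are no result about the members. The replicate block without the covariate gave 0 members and 1 called transcript.

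Genes with an unadjusted p under 0.05 numbered 537 after scaling to a common total, 741 with muscle markers as covariate, 533 without the variance filter and 117 (without alcohol pool 1) to 329 (without alcohol pool 3) with a pool left out; without alcohol pool 2 there were 303. Called member transcripts, 3 as reported, numbered 9 with muscle markers as covariate and 1 (ATPsyndelta or, for the F-test, ND-15) without the covariate, after quantile normalization and in the ordinary F-test. With a pool left out they numbered 3 to 7, and 7 came without control pool 3. The shares of all transcripts called in these fits are not given here, so the counts are no result about the members. With muscle markers as covariate, 8.99% of all genes had an unadjusted p under 0.05, against 2.44% in the model with the library-size covariate. The cause of these moves in the counts was not tested. With 3 pools a group the median standard error of a subunit was 0.19 on the log2 scale, which limits what could be called.

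Of 406 log2 fold changes of the 24 named genes under alternatives, 42 changed sign and 9 others crossed the threshold. ND-15 became 0.0350 after scaling, 0.0227 with the covariate from summed genes, 0.0380 with muscle markers, 0.0415 without the covariate (with or without the block) and 0.0419 after quantile normalization. ND-13A became 0.0175 with the covariate from summed genes, 0.00993 without the covariate (with or without the block), 0.0233 after quantile normalization and 0.311 with block and covariate. COX4L became −0.441 after scaling, −1.44 with muscle markers, −0.790 without the covariate (with or without the block) and −0.773 after quantile normalization. Cyt-c-d became −0.985, −1.61, −1.004 and −0.934 in the same order, and −0.176 with the covariate from summed genes. With muscle markers, SdhC was −0.00217, COX4 −0.0179, blw −0.0168 and Cyt-c1 −0.00791. With block and covariate, UQCR-C2 was −0.0694, blw −0.214, RFeSP −0.148 and Cyt-c1 −0.0234.

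With a pool left out, UQCR-11 ran from −0.00183 to 0.108, COX7C from −0.0136 to 0.0863, ND-15 from −0.0751 to 0.0311, ND-13A from −0.161 to 0.0463, COX4L from −0.0541 to 1.12, blw from −0.0521 to 0.219, Cyt-c1 from −0.0267 to 0.141, ox from −0.144 to 0.0726, Cyt-c-p from −0.0119 to 0.129 and Cyt-c-d from −0.0224 to 1.05. The median of complex III ran from −0.0253 to 0.0607, and the medians of the other complexes stayed positive.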
